A study of Mus musculus with 6 samples.

Results

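PGC-1α (Ppargc1a), PGC-1β (Ppargc1b), the nuclear receptors PPARα (Ppara), PPARδ (Ppard), RXRα (Rxra), ERRα (Esrra) and ERRγ (Esrrg), the transcription factors NRF1 (Nrf1) and TFAM (Tfam) and the muscle regulator PERM1 (Perm1) form the transcriptional circuit that sets mitochondrial content in muscle. These 10 genes were taken by symbol and Ensembl mouse gene ID from a table of 52550 mouse genes, and each symbol was found. They were followed in skeletal muscle of 3 FLExDUX4 mice and 3 wild-type (WT) littermates, all male. FLExDUX4 mice are hemizygous for a human DUX4 transgene, the gene misexpressed in facioscapulohumeral muscular dystrophy. It lies inverted between lox sites at the Rosa26 locus and is read at a low, leaky level. No Cre recombinase was used, so neither group carried the induced form of the transgene, and WT mice carried no transgene. The sample labels give quadriceps muscle at 13 weeks of age, while the paper's methods name triceps and a younger age. RNA was read with QuantSeq, which primes at the poly(A) tail and sequences the 3′ end of each transcript. A transcript then gives about 1 read whatever its length, and counts of different genes need no division by length. A gene may still be counted too low for other reasons, such as overlapping annotation, as with Cpt1b below. Orders and ratios between genes carry that limit.

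The table gives, for each gene, the counts added up over the mice of a genotype, and these totals were the values used. FLExDUX4 mice held 13110125 counts on genes and WT mice 18367364. Values of single mice were left aside, since the headings of their columns match no sample label. No spread between mice was therefore used, no test across mice was run, and a single mouse may decide any total. Ratios below are log2 ratios of the FLExDUX4 total to the WT total after TMM scaling, with a 95% Clopper-Pearson interval that covers counting error only. CPM are counts per 1000000 of the scaled total. Scaling to the ERCC and SIRV spike-in RNAs in place of TMM moved every gene by -0.28, so every ratio printed below from TMM scaling would be lower by that much. A ratio above 0 by less than this turned direction, and for the 10 regulators and most other genes where a direction or call was lost the spike-in value is given. DUX4 itself was not analysed here, so the labels were not checked against it. The tissue was checked by its markers. The 8 markers of skeletal muscle fibres summed to 121674 CPM in FLExDUX4 and 122295 CPM in WT, whereas the 4 markers of heart muscle held 17 and 20 counts in all, with 3 of the 4 at or under 3 counts in WT. In bulk tissue, fewer cells of a type and less RNA per cell cannot be told apart.

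PGC-1α and PGC-1β do not bind DNA themselves. They dock on nuclear receptors and other factors and recruit the machinery that opens chromatin and starts transcription, and PGC-1α is known for its induction in muscle by exercise, fasting and cold. PPARs pair with RXR and turn on genes of fatty acid uptake and oxidation, ERRs drive genes of the respiratory chain and the tricarboxylic acid cycle, and NRF1 and its partner NRF2 (the GABP complex) drive TFAM, which packages and transcribes mitochondrial DNA. PERM1 is a muscle protein induced by PGC-1α and ERR that sustains oxidative capacity.

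Binding letters of these same factors were searched in the promoters of the 10 genes, because a circuit of this kind is known for members that act on each other's genes. Sequences of 250 bases before each transcription start were taken from RefSeq (GRCm38.p6), where 9 of the 10 genes had 14 entries among 32851, and both strands were read. The NRF1 half-site GCATGCGC lay in the promoters of Ppara and Esrra, against 2.26% of all promoter entries. The core of the ERR element, AAGGTCA, lay in those of Perm1 and Rxra, against 4.08% of all entries. CCGGAAGT, the letters read by ETS factors such as GABP, lay in that of Tfam, against 2.88% of all entries. The full ERR element TCAAGGTCA (0.387% of entries, and the core lies within it), the cyclic AMP response element TGACGTCA (1.55%) and the E-box CACGTG (6.02%) were in none of the 14 entries. These matches describe letters in a window and say nothing of binding. The windows of 30 bases that hold them are shown with the match in capitals, 5′ to 3′ on the strand of the gene.
Ppara, chr15:85735735-85735764, plus strand, match starting 31 bases before the start, where 2 half-sites on opposite strands overlap: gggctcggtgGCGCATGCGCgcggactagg
Esrra, chr19:6921824-6921853, minus strand, match starting 34 bases before the start: ccccctgttttGCATGCGCaggccggcccc
Tfam, chr10:71238073-71238102, minus strand, match starting 47 bases before the start: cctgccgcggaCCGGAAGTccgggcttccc
Perm1, chr4:156215714-156215743, plus strand, match to the other strand starting 202 bases before the start: ggaatccggtgTGACCTTagctaatgccaa
Rxra, chr2:27709232-27709261, plus strand, match starting 49 bases before the start of the second of its 2 entries: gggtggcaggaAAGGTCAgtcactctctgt

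The 10 regulators differed little and in both directions between the group totals. Ppargc1a and Ppara were higher in FLExDUX4 mice by about 0.4 on the log2 scale, Ppargc1b and Perm1 were lower, and the intervals of the other 6 held 0. No member differed by a log2 ratio of 0.5 or more in either direction. Of all 13396 genes compared, 15.7% were higher and 15.7% were lower by at least that much, and of the 5382 genes with summed counts in the range of the 10 regulators, 307 to 3879, the shares were 4.57% higher and 3.40% lower. The interval lay above 0 for 2 of the 10 and below 0 for 2 of the 10. The corresponding shares were 20.5% and 20.6% of all genes compared and 22.0% and 20.8% of genes in the same count range, so 2 of 10 in each direction is the background share. The median log2 ratio of the 10 was 0.05, against -0.001 for all genes compared. Added together, the 10 genes held 5183 counts in FLExDUX4 and 7253 in WT, or 399.5 and 390.8 CPM, a log2 ratio of 0.03 (interval -0.02 to 0.08). With spike-in scaling that sum had a ratio of -0.24.

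**Figure D1:**
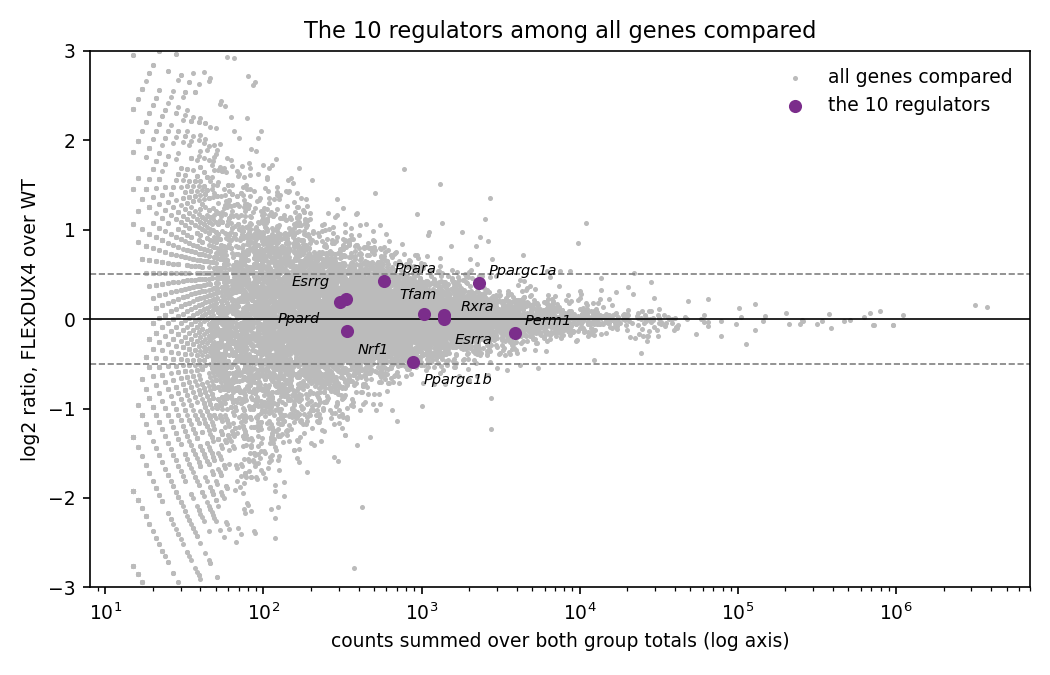
Log2 ratio of FLExDUX4 to WT group totals (vertical axis) against counts summed over both totals (horizontal, log axis) for the 13396 genes compared in grey and the 10 regulators in purple, with dashed lines at 0.5 on either side and 194 genes beyond the vertical range of 3 not drawn. All 10 regulators lie between the dashed lines, with Ppara and Ppargc1a nearest the upper and Ppargc1b nearest the lower one.

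The coactivators held the clearest differences in counts. Ppargc1a (chromosome 5, 51454250 to 51567726, minus strand, GRCm38) had 1101 counts in FLExDUX4 and 1194 in WT, from totals that differed in size by 1.43 times after TMM scaling. Its level was 84.9 CPM (interval 79.9 to 90.02) in FLExDUX4 and 64.3 CPM (60.7 to 68.1) in WT, a log2 ratio of 0.40 (0.28 to 0.52). The 2 intervals of the level did not overlap. With spike-in scaling the ratio was 0.12 (0.004 to 0.24), still above 0 but close to it.

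Ppargc1b, on chromosome 18 (61298136 to 61400431, minus strand), went the other way. It had 295 counts in FLExDUX4 and 587 in WT. The level was 22.7 CPM (20.2 to 25.5) in FLExDUX4 and 31.6 CPM (29.1 to 34.3) in WT, a log2 ratio of -0.475 (-0.68 to -0.27), the largest difference in size among the 10. Here too the intervals of the levels did not overlap, and the spike-in value was -0.75 (-0.96 to -0.55).

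Because the coactivators differed in opposite directions, their balance differed more than either gene. Ppargc1a counts were 3.73 times those of Ppargc1b in FLExDUX4 (3.28 to 4.26) and 2.03 times in WT (1.84 to 2.25). The quotient of these ratios was 1.83 (1.56 to 2.17). Since both genes come from the same libraries, this quotient is the same under every scaling, spike-ins included. The pair is a natural one, as the proteins are close relatives, but it was set beside the others with the values known.

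Perm1 (chromosome 4, 156215868 to 156221307, plus strand) was the most abundant of the 10 in both genotypes. It had 1496 counts in FLExDUX4 and 2383 in WT, or 115.3 CPM (109.5 to 121.3) and 128.4 CPM (123.3 to 133.7). The log2 ratio was -0.16 (-0.25 to -0.06), and Perm1, known as a target of PGC-1α, was thus lower in FLExDUX4 where Ppargc1a was higher. Perm1 counts were 1.36 times those of Ppargc1a in FLExDUX4 (1.26 to 1.47) and 1.996 times in WT (1.86 to 2.14). Read the other way, Ppargc1a relative to Perm1 was 1.47 times as high in FLExDUX4 as in WT (1.32 to 1.63).

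**Figure D2:**
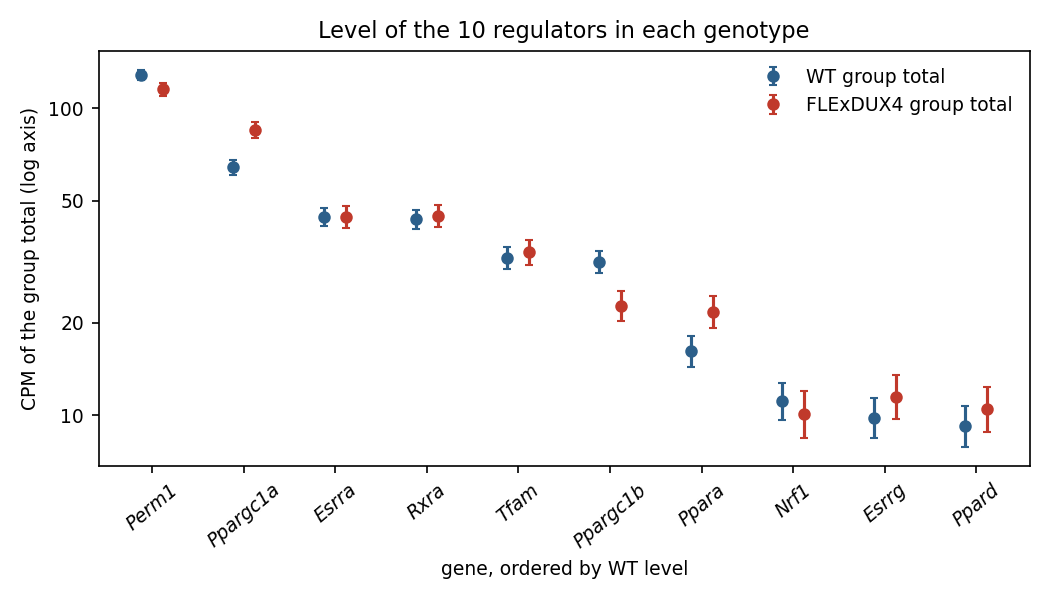
Level of each regulator in CPM of the group total (vertical, log axis), WT in blue and FLExDUX4 in red, ordered by WT level, with bars for the 95% counting interval. The bars of the genotypes are apart for Perm1, Ppargc1a, Ppargc1b and Ppara and overlap for the other 6 genes.

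Of the 5 receptor genes, Ppara was the one whose interval did not hold 0. PPARα is the main receptor for fatty acids in oxidative tissue. Ppara (chromosome 15, 85734983 to 85802819, plus strand) had 282 counts in FLExDUX4 and 300 in WT, or 21.7 CPM (19.3 to 24.4) and 16.2 CPM (14.4 to 18.1). The log2 ratio was 0.43 (0.19 to 0.67), the highest of the 10, and with spike-in scaling it was 0.15 with an interval that held 0 (-0.09 to 0.39).

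PPARδ is the form that in muscle is tied to endurance and slow fibres. Ppard, on chromosome 17, had 136 and 171 counts, or 10.5 CPM in FLExDUX4 and 9.21 CPM in WT, a ratio of 0.19 (-0.15 to 0.52) that turned to -0.09 with spike-in scaling. Counts of Ppara were 2.07 times those of Ppard in FLExDUX4 and 1.75 times in WT. The quotient of 1.18 had an interval of 0.887 to 1.58, so a difference in the balance of these receptors was not detectable at this depth.

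RXRα is a partner that PPARs need in order to bind DNA. Rxra (chromosome 2, 27676440 to 27762957, plus strand) had 580 counts in FLExDUX4 and 806 in WT, or 44.7 and 43.4 CPM. Its ratio of 0.04 (-0.11 to 0.20) became -0.23 (-0.39 to -0.08) with spike-in scaling. Ppara relative to Rxra was 0.486 in FLExDUX4 and 0.372 in WT, with a quotient of 1.31 (1.07 to 1.59). The balance of Ppara and Rxra thus differed by more than the counting error, though this pair was not fixed in advance. The other RXR genes went in different directions under TMM scaling. Rxrb was 0.17 (-0.04 to 0.38), or -0.11 with spike-in scaling, and Rxrg was -0.38 (-0.56 to -0.20). Both were named after their values were seen, and Ppara was not set against them.

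ERRα is the orphan receptor through which PGC-1α drives respiratory genes. Esrra (chromosome 19, 6910977 to 6921813, minus strand) was at the same level in the genotypes under TMM scaling, with 573 counts in FLExDUX4 and 821 in WT. Both came to 44.2 CPM, and the log2 ratio was -0.002 (-0.16 to 0.15). With spike-in scaling it was -0.28 (-0.43 to -0.12), an interval that did not hold 0. Esrra shares 73 exon bases with Trmt112 on the opposite strand, a gene with 326 and 379 counts, and 91 exon bases with the microRNA gene Mir6990, which had 0 counts in both. Ppargc1a relative to Esrra was 1.92 in FLExDUX4 and 1.45 in WT, a quotient of 1.32 (1.15 to 1.52).

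Esrrg encodes ERRγ, which is high in slow, oxidative fibres. The gene (chromosome 1, 187608791 to 188214885, plus strand) had 149 counts in FLExDUX4 and 182 in WT, or 11.5 and 9.81 CPM, a ratio of 0.23 (-0.09 to 0.55), or -0.05 with spike-in scaling. Esrra counts were 3.85 times those of Esrrg in FLExDUX4 and 4.51 times in WT, and the quotient of 0.853 (0.665 to 1.09) held 1.

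NRF1 and TFAM stand at the end of the chain that leads to mitochondrial DNA. Nrf1 (chromosome 6, 30047988 to 30153458, plus strand) had 131 counts in FLExDUX4 and 206 in WT, or 10.1 and 11.1 CPM. The ratio of -0.13 (-0.46 to 0.19) held 0, while the spike-in value of -0.41 (-0.74 to -0.09) did not. Tfam (chromosome 10, 71225464 to 71238280, minus strand) had 440 and 603 counts, or 33.9 and 32.5 CPM, with a ratio of 0.06 (-0.12 to 0.24) that was -0.21 (-0.39 to -0.03) with spike-in scaling. Tfam counts were 3.36 times those of Nrf1 in FLExDUX4 and 2.93 times in WT, with a quotient of 1.15 (0.886 to 1.49).

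**Figure D3:**
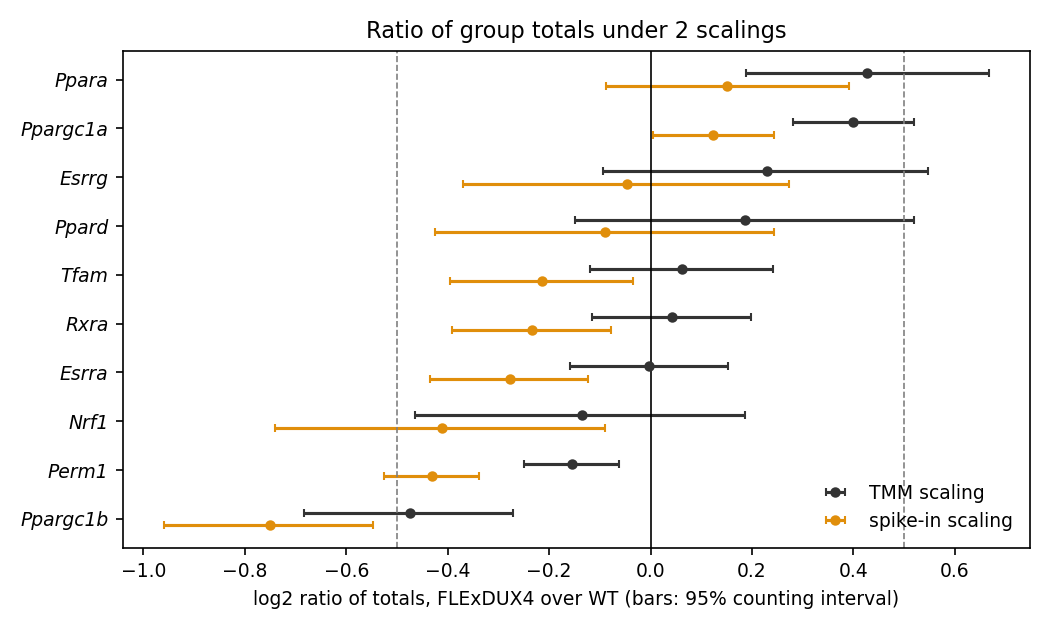
Log2 ratio of FLExDUX4 to WT totals (horizontal axis) for each regulator, under TMM scaling in black and spike-in scaling in orange, with 95% counting intervals and dashed lines at 0.5 on either side. Every orange point lies 0.28 to the left of its black point, Ppargc1a and Ppara stay to the right of 0, and the orange point of Ppargc1b lies at -0.75.

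The order of the levels was much the same in the genotypes. In WT mice it ran from Perm1 to Ppargc1a, Esrra, Rxra, Tfam, Ppargc1b, Ppara, Nrf1, Esrrg and Ppard. Neighbours that did not differ beyond counting error were Esrra and Rxra, Tfam and Ppargc1b, and the 3 least abundant genes. FLExDUX4 mice had the order Perm1, Ppargc1a, Rxra, Esrra, Tfam, Ppargc1b, Ppara, Esrrg, Ppard and Nrf1. There, Rxra and Esrra, Ppargc1b and Ppara, and the 3 least abundant genes were not separated. Ppargc1b thus stood level with Tfam in WT and level with Ppara in FLExDUX4. Perm1 took 32.9% of all counts on the 10 genes in WT and 28.9% in FLExDUX4, whereas Ppargc1a took 16.5% and 21.2%. Ppargc1b took 8.09% in WT and 5.69% in FLExDUX4.

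**Figure D4:**
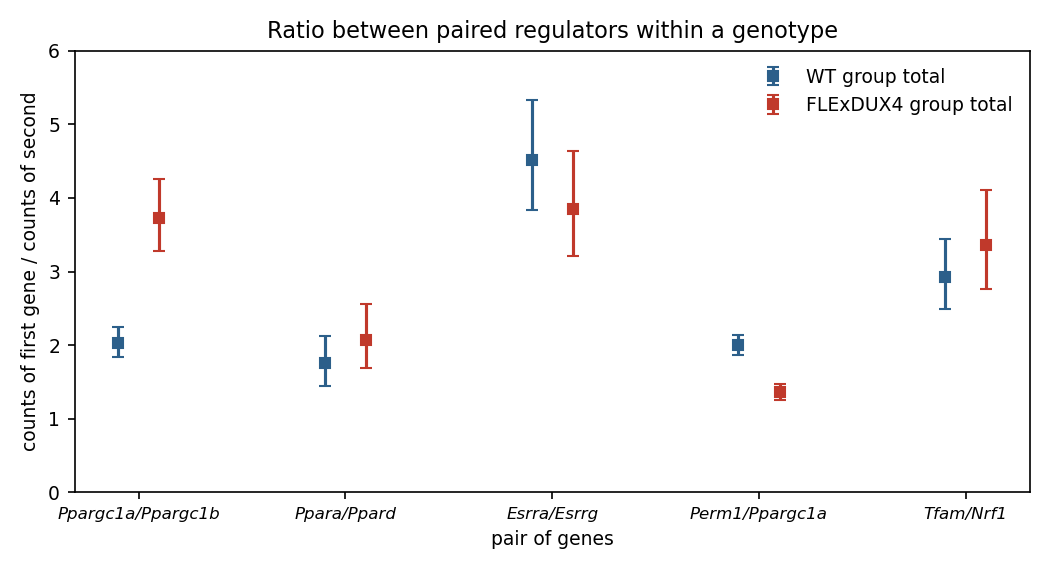
Ratio of the counts of 2 regulators within a genotype (vertical axis from 0, no unit) for 5 pairs, WT in blue and FLExDUX4 in red, with 95% counting intervals. The genotypes are apart for Ppargc1a to Ppargc1b, at 2.03 and 3.73, and for Perm1 to Ppargc1a, at 1.996 and 1.36, and overlap for the other 3 pairs.

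Partners and switches of PGC-1 were then counted as a list of 24 genes. This list held the deacetylase Sirt1, AMP-activated kinase subunits and docking factors, and 12 were higher and 12 lower in FLExDUX4, with a median of 0.03, or 7 higher with spike-in scaling. Intervals lay above 0 for 10 and below 0 for 8, and 2 genes in each direction were past a log2 ratio of 0.5, where the shares of all genes compared were 20.5% and 20.6% for the intervals and 15.7% each way for the fold. In the count range of the 10 regulators, the shares past the fold were 4.57% higher and 3.40% lower. Prkaa1 and Pprc1, which are past the fold, fall below that range, and the most abundant genes of the list lie above it. Neither share is thus matched to the list. Flcn, which encodes folliculin, a brake on PGC-1α in muscle, had 540 counts in FLExDUX4 and 503 in WT, a ratio of 0.62 (0.44 to 0.80), or 0.34 (0.16 to 0.52) with spike-in scaling. Under that scaling it was the only gene of the list with an interval above 0, and most of the 24 intervals lay below 0. Prkaa1, the α1 catalytic subunit of AMP-activated kinase, had 135 counts in both totals, a ratio of 0.52 (0.16 to 0.87). Under spike-in scaling it was 0.24 (-0.11 to 0.60), neither past 0.5 nor off 0. Prkaa2, the α2 subunit that is abundant in muscle, had 2368 and 3419 counts and a ratio of -0.01 (-0.09 to 0.06), or -0.29 (-0.37 to -0.21) with spike-in scaling.

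Lower in the same list was the third member of the PGC-1 family, Pprc1. It had 31 counts in FLExDUX4 and 71 in WT, a ratio of -0.67 (-1.34 to -0.05). Pprc1 and Ppargc1b were thus both lower and Ppargc1a higher within the PGC-1 family. Most counts in the list fell on Mef2c, which binds the Ppargc1a promoter, with 15510 and 24133 counts and a ratio of -0.12 (-0.15 to -0.09), and on Lpin1, a coactivator of PPARα with PGC-1α, with 4699 and 5520 counts and a ratio of 0.28 (0.23 to 0.34). The difference in Lpin1 was gone with spike-in scaling, at 0.01 (-0.05 to 0.06). Lpin1 also stands in a pathway list that the study picked on these samples, so it is not independent evidence of a direction. Prkaa2 and Sirt1 were named after their values were seen, and Sirt1 had 207 and 218 counts and a ratio of 0.44 (0.16 to 0.72), or 0.17 (-0.12 to 0.45) with spike-in scaling.

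Among the other receptors and NRF partners, 12 genes in all, 6 were higher and 6 lower with a median of 0.05, or 3 higher with spike-in scaling, and 2 were past a log2 ratio of 0.5, both higher and both under 307 summed counts, beside 15.7% of all genes compared. Intervals lay above 0 for 5 and below 0 for 1, beside 20.5% and 20.6% of all genes compared. Pparg, the receptor that governs fat cells, had 69 counts in FLExDUX4 and 54 in WT, a ratio of 0.87 (0.34 to 1.41), or 0.59 with spike-in scaling. Gabpb1, a subunit of GABP, had 49 and 43 counts, a ratio of 0.70 (0.08 to 1.33), or 0.43 (-0.19 to 1.05) with spike-in scaling. Most counts fell on Nfe2l1 and on the thyroid hormone receptor gene Thra. Nfe2l1 was counted in this list but encodes neither a nuclear receptor nor a partner of NRF1 or GABP. It had 3168 and 4139 counts and a ratio of 0.13 (0.06 to 0.20) that was -0.15 with spike-in scaling. Thra had 1072 and 1649 counts and a ratio of -0.10 (-0.22 to 0.01), or -0.38 (-0.49 to -0.27) with spike-in scaling. Thra shares 263 exon bases with Nr1d1 on the opposite strand.

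Markers of fat lay on the same side as Pparg. All 6 adipocyte markers were higher in FLExDUX4 under TMM scaling, and 4 of them with spike-in scaling. Ratios ran from 0.11 to 0.88, and the interval of Cidec held 0 (-0.14 to 0.53). The markers summed to 388.4 CPM against 304.8 CPM in WT. Their part in the values of Pparg, Ppara and the PPAR targets was not tested. The most abundant of the markers were Fabp4, with 2929 and 3869 counts, and Cfd, with 1468 and 1144. Fabp4 had a ratio of 0.11 (0.05 to 0.18) that turned to -0.16 (-0.23 to -0.09) with spike-in scaling. Cfd had 0.88 (0.76 to 0.99), or 0.60 with spike-in scaling. Red cell markers were higher too, with 5 of 5 higher at 0.25 to 0.45 and 1279 CPM against 1020 CPM, and 4 of 5 with spike-in scaling. The part of blood in these values was likewise not tested. Markers of fibroblasts summed to 1247 CPM in FLExDUX4 and 1129 CPM in WT, those of leukocytes to 26.1 and 25.8 CPM, and those of Schwann cells to 144.4 and 135.7 CPM. With spike-in scaling all 3 sums were lower in FLExDUX4, at -0.13, -0.26 and -0.19.

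Genes that copy and transcribe mitochondrial DNA showed no common direction. Of 14 listed, 13 were compared, 6 higher and 7 lower around a median of -0.01, or 2 higher with spike-in scaling. Past a log2 ratio of 0.5 and higher were Tfb1m, a mitochondrial ribosomal RNA methyltransferase, with 29 and 21 counts and a ratio of 0.97 (0.12 to 1.87), and Tefm, the mitochondrial elongation factor, with 190 and 183 counts and a ratio of 0.57 (0.27 to 0.87). With spike-in scaling both intervals held 0, at 0.70 (-0.15 to 1.59) for Tfb1m and 0.29 (-0.006 to 0.60) for Tefm. Lower were Mterf3, a repressor of mitochondrial transcription, with 86 and 230 counts and a ratio of -0.90 (-1.28 to -0.54), and Ssbp1, the mitochondrial single-strand DNA binding protein, with 99 and 237 counts and a ratio of -0.74 (-1.10 to -0.40). The 2 higher and 2 lower of 13 stand beside 15.7% each way of all genes compared, and beside 4.57% higher and 3.40% lower of genes with 307 to 3879 summed counts, a range that holds Tefm, Mterf3 and Ssbp1 but not Tfb1m. Intervals lay above 0 for 2 and below 0 for 4 of the 13, beside 20.5% and 20.6% of all genes compared. Mrpl12, which binds the mitochondrial RNA polymerase, and the protease Lonp1, which degrades TFAM, held the most counts. Mrpl12 had 816 and 1123 counts and a ratio of 0.06 (-0.08 to 0.19) that was -0.22 with spike-in scaling, and Lonp1 had 451 and 729 counts and a ratio of -0.18 (-0.35 to -0.005). Mterf1a, with 8 and 2 counts, was below the filter on low counts.

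The mitochondrial genome itself summed to nearly the same level under TMM scaling. Messenger RNAs of 9 of its 13 protein genes could be compared, and they summed to 96384 CPM in FLExDUX4 and 96549 CPM in WT, a ratio of -0.003 (-0.006 to 0.001). With spike-in scaling the sum had a ratio of -0.28. Of the 9, 6 were higher and 3 lower, and the median was 0.03, or 2 higher with spike-in scaling. Intervals lay above 0 for 5 and below 0 for 2, beside 20.5% and 20.6% of all genes compared. Higher were mt-Nd3 at 0.38 (0.29 to 0.47), or 0.10 with spike-in scaling, and mt-Co1 at 0.17 (0.15 to 0.18), or -0.11. Both were named after their values were seen. The complex I genes mt-Nd2 and mt-Nd4 held the most counts over both totals together, followed by mt-Nd1. mt-Nd2 had 292521 and 437127 counts and a ratio of -0.06, and mt-Nd4 had 287628 and 431369 counts and a ratio of -0.07. mt-Nd1, named after its value was seen, had 290560 and 397754 counts and a ratio of 0.06, or -0.21 with spike-in scaling. mt-Atp6 had 11 counts in both totals, so that its ratio of 0.52 had an interval of -0.83 to 1.86. mt-Nd4l, mt-Co2, mt-Co3 and mt-Atp8 had 0 counts in both totals, so the table says nothing of their levels.

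**Figure D5:**
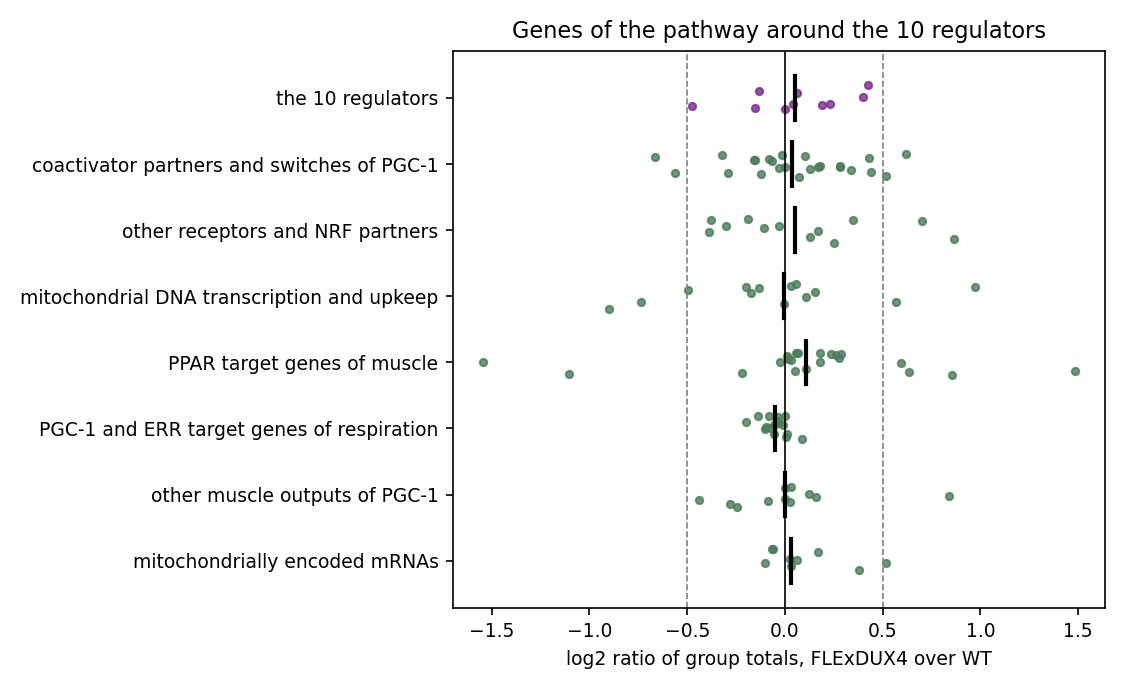
Log2 ratio of FLExDUX4 to WT totals (horizontal axis) for each gene compared, by list, with the 10 regulators in purple, other genes in green, a black bar at each median and dashed lines at 0.5 on either side. The respiration genes are gathered from -0.20 to 0.09, while the PPAR targets are spread more widely, down to -1.55, with a median of 0.11.

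Targets of the PPARs were more often higher than lower. Of 22 listed, 21 were compared, and 17 were higher and 4 lower, beside 6685 higher and 6711 lower of all genes compared. With spike-in scaling 6 of the 21 were higher. Intervals lay above 0 for 10 and below 0 for 2, 4 were past a log2 ratio of 0.5 higher and 2 lower, and the median was 0.11, or -0.17 with spike-in scaling. Over all genes compared, 20.5% of intervals lay above 0 and 20.6% below, and 15.7% each way were past 0.5. Among genes with 307 to 3879 summed counts, 4.57% were past 0.5 higher and 3.40% lower, and the list holds genes below, within and above that range, so neither share is matched to it. As a sum they held 2923 CPM in FLExDUX4 and 2490 CPM in WT, a ratio of 0.23 (0.21 to 0.25) whose direction rests on the scaling, since it was -0.04 (-0.06 to -0.02) with spike-ins. Most of the difference in CPM fell on Pdk4 and Lpl, the pair with the most counts in the list over both totals together.

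Pdk4, the kinase that shuts glucose carbon out of the mitochondrion when fat is burned, had 5470 counts in FLExDUX4 against 4329 in WT, or 421.6 and 233.3 CPM, a ratio of 0.85 (0.80 to 0.91). It had more counts in the smaller of the totals, and its ratio was 0.58 with spike-in scaling. Lpl, lipoprotein lipase, had 9952 and 11750 counts and a ratio of 0.28 (0.24 to 0.32), and with spike-in scaling of 0.001 (-0.04 to 0.04). Lpl also stands in a list the study picked on these samples. Ucp3, a mitochondrial carrier of muscle, had 431 and 409 counts and a ratio of 0.59 (0.39 to 0.79), and Plin2, a lipid droplet coat protein, had 236 and 217 counts and a ratio of 0.64 (0.37 to 0.91). Both were under 0.5 with spike-in scaling, at 0.32 (0.12 to 0.51) for Ucp3 and 0.36 (0.09 to 0.63) for Plin2. Ucp3 and Plin2 were named after their values were seen.

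Other classical PPAR targets went the other way at low counts. Angptl4, an inhibitor of lipoprotein lipase, had 13 counts in FLExDUX4 and 41 in WT, a ratio of -1.10 (-2.17 to -0.21), and Acot1, an acyl-CoA thioesterase, had 8 and 35 counts, a ratio of -1.55 (-2.93 to -0.48). Acadm, a core enzyme of β-oxidation, had 3051 and 4318 counts and a ratio of 0.02 (-0.05 to 0.08), or -0.26 with spike-in scaling. Fabp3, the fatty acid binding protein of muscle, had 3622 and 5152 counts and a ratio of 0.01 (-0.05 to 0.07), or -0.27 with spike-in scaling. Both were named after their values were seen. Cpt1b, the muscle gate of fatty acid entry, had 6 counts in FLExDUX4 and 0 in WT and was not compared, and its exons share 2744 bases on the same strand with Gm44502, which makes its count uncertain.

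Respiratory targets of PGC-1 and ERR were almost level under TMM scaling. Of 16 genes, 4 were higher and 12 lower, with ratios from -0.20 to 0.09 and a median of -0.05. The ratios lie so close to 0 that the count of genes higher was 1 with upper-quartile factors, with gene totals and with at least 10 counts in each total, 2 with no filter and 0 with spike-in scaling, where the median was -0.33. No gene was past a log2 ratio of 0.5, and the interval lay above 0 for 1 and below 0 for 9, where the shares of all genes compared were 20.5% and 20.6%. Counts in this list are high and its intervals narrow. Slc25a4, the ADP/ATP carrier of muscle, had 38848 and 57846 counts and a ratio of -0.06 (-0.08 to -0.04). Cox6a2, the muscle form of a cytochrome oxidase subunit, had 25679 and 38878 counts and a ratio of -0.08 (-0.10 to -0.06). Summed, the list held 12314 CPM in FLExDUX4 and 12670 CPM in WT. The 8 markers of oxidative and slow fibres lay on the same side, with 6 lower and 2020 CPM against 2119 CPM in sum, a ratio of -0.07 (-0.09 to -0.05). The 8 markers of skeletal muscle fibres also had 6 lower and 2 higher, with a summed ratio of -0.007 (-0.01 to -0.004). Among them Myh1 was -0.19 (-0.21 to -0.17), whereas Myh2 of the oxidative list was -0.04 (-0.07 to -0.01). Both were named after their values were seen. The part of fibre type in these values was not tested.

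Among 11 other muscle outputs of PGC-1, 6 were higher and 5 lower with a median of 0.001, or 1 higher with spike-in scaling. Ucp2, a mitochondrial carrier, was the 1 of 11 past a log2 ratio of 0.5, against 15.7% of all genes compared in that direction, with 59 and 47 counts and a ratio of 0.84 (0.27 to 1.43). With spike-in scaling the ratio was 0.57 (-0.009 to 1.15). Myoglobin (Mb) was level at 24079 and 34467 counts and a ratio of -0.001 (-0.02 to 0.02), and the insulin-responsive glucose transporter Slc2a4 had 2859 and 3749 counts and a ratio of 0.13 (0.05 to 0.20), or -0.15 with spike-in scaling. Vegfa, the angiogenic factor that PGC-1α induces through ERRα, had 1249 and 2117 counts and a ratio of -0.24 (-0.35 to -0.14), or -0.52 with spike-in scaling, and was named after its value was seen. The 4 endothelial markers were mixed. Their sum was 153.3 CPM in FLExDUX4 and 178.0 CPM in WT, with 3 of 4 lower and a median of -0.29. Kdr (-0.56, interval -0.70 to -0.42) and Tek (-0.63, -1.04 to -0.25) were lower. Intervals of Pecam1 (0.06, -0.07 to 0.20) and Cdh5 (-0.03, -0.19 to 0.14) held 0. With spike-in scaling these last values were -0.21 and -0.30. The part of endothelial cells in the value of Vegfa was not tested.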

How the data were processed

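QuantSeq libraries of 3 FLExDUX4 and 3 WT mice were available as 1 table. The submitters' processing notes list cutadapt 1.16, FastQC 0.11.7, STAR 2.5.3a, featureCounts 1.6.2 and DESeq2, and the genome was GRCm38 with ERCC and SIRV sequences. The deposited values used here are raw counts per gene that the authors added up per genotype, without normalization. A further 6 columns of values per library match no label and were not used. The columns of the authors' own comparison (mean, fold change, its standard error, statistic and p-values) were not used. Spike-ins took 1.65% of all counts in FLExDUX4 and 1.40% in WT and were left out of library sizes.

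The TMM factors came from edgeR 4.0.16, run in R 4.3.3, over the 13396 genes that passed filterByExpr, its filter on low counts. Log2 ratios carry 0.5 added to each total, and scipy 1.17.1 (Python 3.11.15) gave the intervals. Scripts were tested on simulated data. All 10 regulators were named, and from each list the genes past a log2 ratio of 0.5 with an interval off 0 (up to 4) and the 2 with the most counts. Of the genes so named, 2 are counted in their lists but not reported here. The members and lists were chosen with earlier results of these data known. Coordinates are from GENCODE M21. Protein sequences were not used here.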

Additional observations from a re-analysis of the deposited data

How the results depend on the processing

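No paired analysis was possible because the columns of single libraries carry no label, and tests with edgeR or DESeq2, a replicate block and leaving out each mouse were not run for the same reason. Depth limits Ppard, Esrrg and Nrf1 most, with 131 to 206 counts in a total. Over 10 alternatives, 29 results gave 209 values, of which 176 lay within the counting interval of the value reported (for a list's median, within the typical width of its genes' intervals to one side, and for a count, within 1.5 times), 33 did not, and 0 turned the sign of a value whose interval excluded 0. With spike-in totals, 24 did not, and within their wide intervals Ppard (-0.09) and Esrrg (-0.05) turned sign, Nrf1 was -0.41 with an interval off 0, and the median of the mitochondrial DNA list was -0.28. The median of the 10 regulators was then -0.22, close to the -0.28 of all genes compared, 1 interval lay above 0 and 6 below 0, and 1 regulator (Ppargc1b) was past a log2 ratio of 0.5 lower. The shares of all genes compared were not computed under spike-in scaling. Every gene moved by the same -0.28, so these counts cannot be read as a trait of the 10. Unscaled gene totals also put 1 (Ppargc1b) past 0.5 lower. With a fold of 0.25, 2 were higher (Ppargc1a and Ppara) and 1 lower (Ppargc1b). Over all genes compared the median size of the log2 ratio was 0.28, so most of them were past 0.25 in either direction. The spike-in shift has its source in the larger spike-in share of FLExDUX4 counts, and the cause of that share was not tested.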
